A study of Homo sapiens with 6 samples.

Results

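The GADD45 genes and a group of growth arrest genes tied to p53 and to TGF-β were measured in HK2, an established human cell line from the epithelium of the proximal kidney tubule. The group was a list of 9 symbols, GADD45A, GADD45B, GADD45G, CDKN1A, CDKN1B, CDKN2B, BTG2, MDM2 and GDF15, taken from 38100 genes in the deposited tables. All 9 were listed, and all 9 had enough counts to be tested. The control cells (AdCtrl) carried an adenovirus with an empty vector, and the other cells (AdSIRT4, AdSirt4 in the labels) carried an adenovirus for SIRT4. The genotype label was WT and all cells had been stimulated with TGF-β1, so the response of these genes to TGF-β1 itself could not be measured. Each group had 3 samples, all titled HK2, although the numbers in their cell line labels run from HK2 to HK7. The study's reporting checklist describes n in vitro as technical replicates, and if this covers the sequenced cultures, the SDs and p-values describe technical spread.

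GADD45A, GADD45B and GADD45G encode small nuclear and cytoplasmic proteins that bind PCNA, CDK1 and the kinase MAP3K4, and through MAP3K4 they can activate p38 and JNK. CDKN1A (p21), CDKN1B (p27) and CDKN2B (p15) inhibit cyclin-dependent kinases, and p21 and p15 are classical mediators of the growth arrest that TGF-β imposes on epithelial cells. MDM2 is the ubiquitin ligase that keeps p53 low, and its own gene is induced by p53, as are CDKN1A, GADD45A, BTG2 and GDF15. HK2 cells were immortalized with papillomavirus E6 and E7 genes, whose products promote the loss of p53 and bind RB.

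Total counts ranged from 42102861 to 53677241 in the AdCtrl samples and from 41537353 to 85684748 in the AdSIRT4 samples. SIRT4 was measured at 0.930 ± 0.309 CPM (counts relative to library size after TMM scaling; SD, n = 3) in AdCtrl cells and at 76.0 ± 21.9 CPM (SD, n = 3) in AdSIRT4 cells, as the labels say. AdSIRT4 replicate 1 stood apart from the other AdSIRT4 samples in a way that followed gene length (across genes, Spearman rho = -0.585 between length and its deviation from its group mean), and the results for the 9 genes, and for the genes named from pathway lists, are therefore also given without it. Of 12 kidney epithelial markers, KRT8 (833.3 CPM in AdCtrl cells), KRT18 (338.5), GGT1 (237.4), CDH2 (234.2) and PAX8 (232.7) were abundant. KRT7 (42.55) and KRT19 (39.5) were lower, and PAX2 (1.28) and CUBN (0.264) were low. The mature proximal tubule genes ANPEP, AQP1 and LRP2 had too few counts to be tested. Of 12 markers of other cell types, 8 were not tested for lack of counts, CD3E and AQP2 had 0 counts in every sample, and CD68, a lysosomal gene of macrophages and other cells, had between 31.6 and 46.5 CPM. The summed level of these 12 markers was 33.87 to 38.36 CPM in the AdCtrl samples and 38.04 to 47.65 CPM in the AdSIRT4 samples. Most of this sum was CD68, with means of 35.05 CPM in AdCtrl and 40.13 CPM in AdSIRT4 cells. The part of these markers in the results was not tested. In these bulk samples, fewer cells expressing a gene and less RNA per cell cannot be told apart.

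No growth arrest gene passed the test between AdSIRT4 and AdCtrl cells with all 6 samples. CDKN2B was higher in AdSIRT4 cells by 22.1% and BTG2 differed by -23.4%, and these were the members with the largest differences relative to their error. GADD45B was higher by 24.8% and CDKN1B differed by -14.1%, but the size of both differences depended on single AdSIRT4 samples. In edgeR's quasi-likelihood test with Benjamini-Hochberg adjustment, 0 of the 9 genes had an adjusted p under 0.05, where 0.0113% of the 17720 genes tested did (2 genes, and 1 with a replicate block). At an unadjusted p under 0.05 there was 1 higher member (CDKN2B) and 1 lower member (BTG2), where 4.43% and 3.5% of all genes were called higher and lower. The groups did not overlap in CPM for 2 higher members (GADD45B and CDKN2B), against a background of 9.66% of all genes, and for 2 lower members (CDKN1A and BTG2), against 9.77%. Without AdSIRT4 replicate 1, BTG2 and CDKN1B had an adjusted p under 0.05 in edgeR and both were lower in AdSIRT4 cells, where 3.34% of 18287 genes were called lower and 3.37% higher. DESeq2 called 0 of the 9 with all samples, where it called 212 of the 17720 genes tested. In limma voom with sample quality weights, which kept AdSIRT4 replicate 1 at a weight of 0.0795 where the other samples had 0.984 to 2.92, CDKN2B was called as well as BTG2 and CDKN1B, and 8.94% of all genes were. The plot of CPM by sample shows these values.

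**Figure D1:**
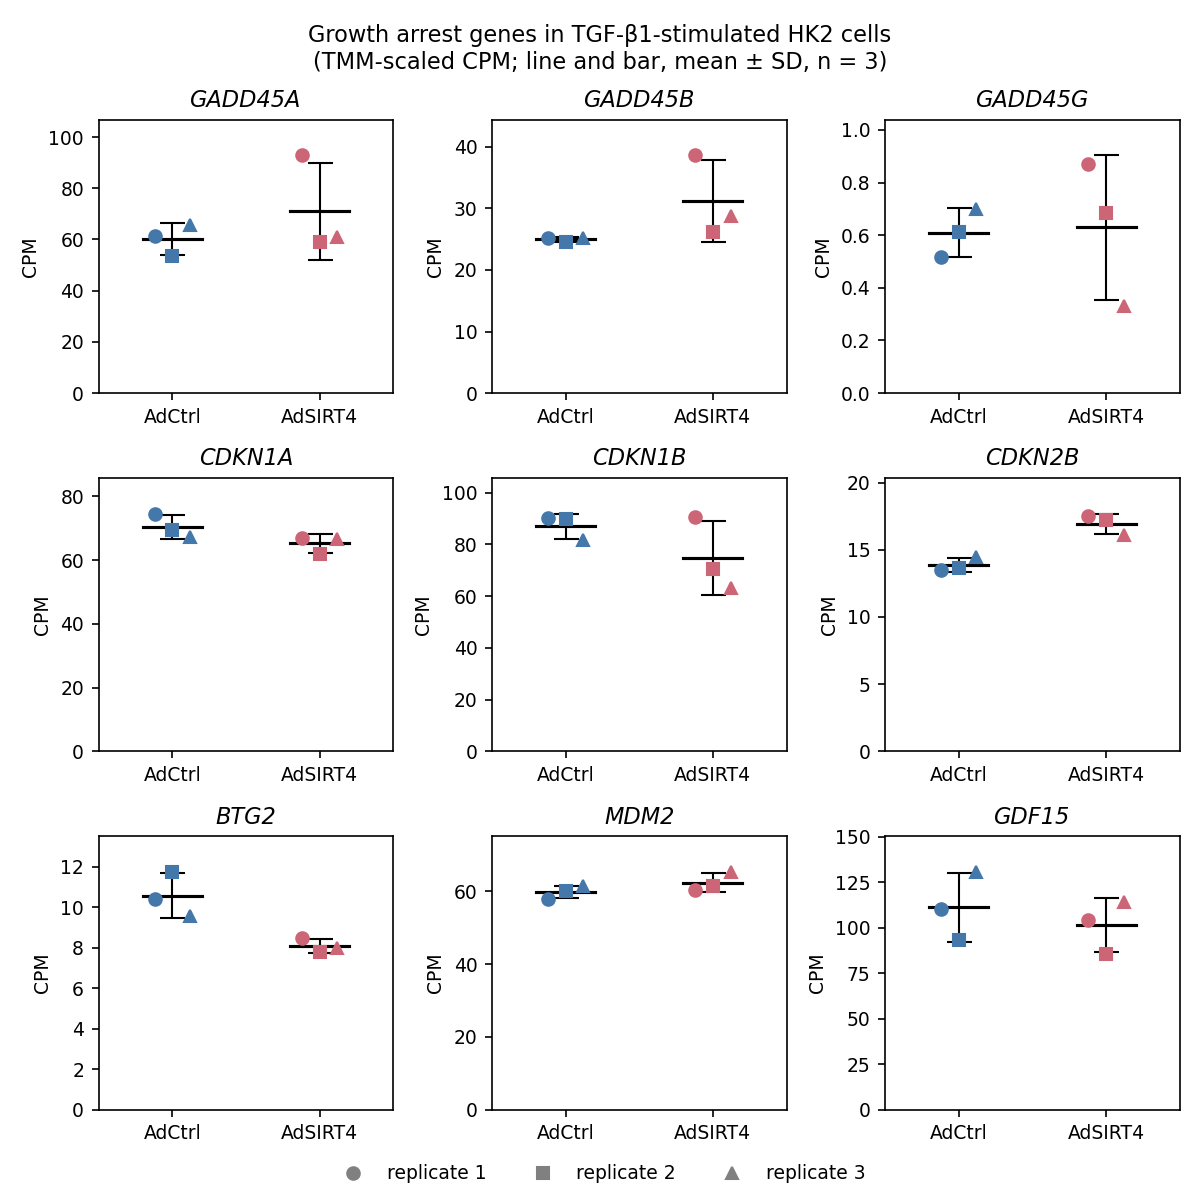
CPM of the 9 growth arrest genes in the 3 AdCtrl (blue) and 3 AdSIRT4 (red) samples, one panel per gene, each with its own axis from 0; symbols mark the replicate number, lines and bars the mean ± SD. CDKN2B lies between 16.1 and 17.5 CPM in AdSIRT4 samples, above every AdCtrl sample, and BTG2 lies between 7.81 and 8.47 CPM, below every AdCtrl sample. AdSIRT4 replicate 1 is the highest AdSIRT4 sample of every gene but MDM2 and GDF15.

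The promoters of the 4 members whose groups did not overlap in CPM are shown from RefSeq on GRCh38.p14, as the 250 bases before the transcription start, 5′ to 3′ on the strand of the gene. For CDKN1A the start used by this table lies inside the gene span given below, which opens at a start further upstream, so the window is that of 1 of its starts. Letters in capitals mark matches on either strand to the motifs named here, each searched as exact letters. In GADD45B (chr19:2475877-2476126, plus strand) the capitals mark an E-box (CACGTG), the CCAAT boxes and a TATA box (TATAAA). In CDKN2B (chr9:22009306-22009555, minus strand) they mark GC boxes (GGGCGG, or CCGCCC where the match is on the opposite strand), the motif of SP1, and the ATF/CREB core TGACG. In BTG2 (chr1:203305269-203305518, plus strand) they mark TGACG, GC boxes and a CCAAT box, and in CDKN1A (chr6:36678464-36678713, plus strand) they mark 4 GC boxes, of which the last pair overlaps.
GADD45B: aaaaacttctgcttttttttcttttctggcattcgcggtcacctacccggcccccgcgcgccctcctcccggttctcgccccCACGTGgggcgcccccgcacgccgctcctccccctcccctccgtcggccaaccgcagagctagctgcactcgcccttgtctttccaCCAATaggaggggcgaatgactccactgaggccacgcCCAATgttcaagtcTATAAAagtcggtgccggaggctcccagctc
CDKN2B: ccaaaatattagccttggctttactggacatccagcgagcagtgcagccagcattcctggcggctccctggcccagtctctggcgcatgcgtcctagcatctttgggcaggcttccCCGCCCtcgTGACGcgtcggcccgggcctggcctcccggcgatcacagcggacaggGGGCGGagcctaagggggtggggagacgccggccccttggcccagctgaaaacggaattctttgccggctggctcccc
BTG2: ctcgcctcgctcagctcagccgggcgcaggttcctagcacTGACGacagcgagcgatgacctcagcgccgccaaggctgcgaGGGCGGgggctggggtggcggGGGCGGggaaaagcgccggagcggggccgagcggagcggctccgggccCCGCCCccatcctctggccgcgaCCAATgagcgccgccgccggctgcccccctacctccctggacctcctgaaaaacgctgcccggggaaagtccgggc
CDKN1A: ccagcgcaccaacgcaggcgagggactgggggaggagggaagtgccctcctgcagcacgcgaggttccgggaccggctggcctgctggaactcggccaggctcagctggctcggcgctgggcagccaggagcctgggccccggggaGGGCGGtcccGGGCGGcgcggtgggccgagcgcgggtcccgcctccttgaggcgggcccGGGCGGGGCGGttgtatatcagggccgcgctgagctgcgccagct

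A RefSeq promoter window of 300 bases, 250 before and 50 after the start, was matched for 8 of the 9 members (11 windows). The CDKN1A GC boxes began 104, 94, 45 and 40 bases before the start. In GADD45B the TATA box began 31 bases and the E-box 168 bases before the start. GC boxes were found in the windows of 6 of the 8 genes, against 45% of the 35116 windows of all genes. Here and below a gene was counted if any of its windows matched, and MDM2 had several windows. The shares of all genes are per window, so the units differ. CCAAT boxes were found in 6 of the 8 (34.6% of all windows) and a TATA box in 2, GADD45B and GDF15 (11.5%). CACGTG was found in 2, GADD45B and GADD45G (7.26%), and TGACG in 3 (24.6%). The SMAD box CAGAC was found in 3 (45.3%) and the AP-1 motif TGANTCA in MDM2 (7.71%). The consensus decamer of p53 matched in 0 of the 11 windows of these 8 genes, against 6.63% of all windows. This says only that an exact match does not lie within these bases. These matches are descriptions of the sequence.

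Among the GADD45 genes, GADD45B was higher in AdSIRT4 cells in every sample, but by very different amounts, and GADD45A was higher in 1 sample. GADD45B (Entrez gene 4616, chromosome 19, 2476127 to 2478257), which is induced by TGF-β through SMAD proteins in many cells, stood at 25.1, 24.6 and 25.2 CPM in the control samples, in the order of their replicate numbers, and at 38.6, 26.1 and 28.8 CPM with AdSIRT4. The AdCtrl samples were nearly identical, and AdSIRT4 replicate 2 lay just above them. Its log2 fold change was 0.32 (standard error, SE, 0.155, edgeR adjusted p = 0.678), the group means were 25.0 ± 0.358 and 31.2 ± 6.60 CPM (SD, n = 3), and the two-sided exact permutation test gave p = 0.1, the smallest that 3 samples against 3 allow. Without AdSIRT4 replicate 1 the log2 fold change was 0.13 (SE 0.0681, edgeR adjusted p = 0.265) and the difference in mean CPM was 9.89%. In the deposited FPKM, a level per transcript length, the groups of GADD45B overlapped, with 16.8 FPKM in both AdCtrl replicate 3 and AdSIRT4 replicate 2.

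GADD45A (Entrez gene 1647, chromosome 1, 67685201 to 67688334), the p53-responsive and DNA damage-induced member of the family, stood at 61.5, 53.6 and 65.8 CPM in the control samples and at 92.9, 59.2 and 61.1 CPM with AdSIRT4. AdSIRT4 replicates 2 and 3 lay within the range of the AdCtrl samples, and replicate 1 lay far above it. The log2 fold change of 0.24 (SE 0.191, edgeR adjusted p = 0.760) was -0.0086 without AdSIRT4 replicate 1. GADD45G (Entrez gene 10912, chromosome 9, 89605012 to 89606555) was close to silent, with 26 to 36 reads in the AdCtrl samples and 27 to 59 in the AdSIRT4 samples. Its level was 0.610 ± 0.0914 CPM in AdCtrl cells and 0.630 ± 0.274 CPM in AdSIRT4 cells (SD, n = 3), where a count of 0 would allow up to 0.0722 CPM in the shallowest library. A log2 fold change of 0.016 with an SE of 0.39 leaves differences of either sign within its error at this depth, and it was -0.26 without AdSIRT4 replicate 1.

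The CDK inhibitors did not differ in the same direction. CDKN2B (Entrez gene 1030, chromosome 9, 22002903 to 22009313), the p15 inhibitor of CDK4 and CDK6, stood at 13.5, 13.7 and 14.4 CPM in the control samples and at 17.5, 17.2 and 16.1 CPM with AdSIRT4. The samples within each group lay close together and the groups were separate, in CPM and in FPKM alike. The means were 13.9 ± 0.501 and 16.9 ± 0.755 CPM (SD, n = 3), which gave a log2 fold change of 0.29 (SE 0.0935, unadjusted p = 0.0176 and edgeR adjusted p = 0.553; exact permutation p = 0.1). This difference did not rest on AdSIRT4 replicate 1, since the log2 fold change was 0.26 without it (edgeR adjusted p = 0.0703), and it lay between 0.20 and 0.32 over all 19 alternatives. The antisense gene CDKN2B-AS1 spans CDKN2B, and whether strand was used in counting is not given in the sources used here, so reads of both cannot be told apart with certainty. CDKN2B-AS1 itself had 6.12 CPM in AdCtrl cells and 6.54 CPM in AdSIRT4 cells.

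CDKN1B (Entrez gene 1027, chromosome 12, 12717368 to 12722369), the p27 inhibitor that holds CDK2 in check in resting cells, stood at 90.0, 89.7 and 81.5 CPM in the control samples and at 90.6, 70.5 and 63.2 CPM with AdSIRT4. AdSIRT4 replicate 1 was at the level of the highest AdCtrl samples, and the other AdSIRT4 replicates lay below every AdCtrl sample. With all samples the log2 fold change was -0.22 (SE 0.146, edgeR adjusted p = 0.732). Without AdSIRT4 replicate 1, CDKN1B passed the test with a log2 fold change of -0.39 (SE 0.0654, edgeR adjusted p = 0.0092), a difference of -23.2% in mean CPM. Without AdSIRT4 replicate 3, the lowest sample, it moved the other way, to -0.11 (edgeR adjusted p = 0.709). With the trend on gene length removed from every library, the log2 fold change of all samples was -0.27 (edgeR adjusted p = 0.282). In FPKM, the lowest AdCtrl sample (30.8) lay just above the highest AdSIRT4 sample (30.5), so that on this scale the groups did not overlap.

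CDKN1A (Entrez gene 1026, chromosome 6, 36676463 to 36687332), the p21 inhibitor and the best-known p53 target, stood at 74.6, 69.3 and 67.2 CPM in the control samples and at 67.0, 61.9 and 66.7 CPM with AdSIRT4. The groups were separated by less than the distance between any pair of AdCtrl samples, and in FPKM they overlapped. The log2 fold change was -0.11 (SE 0.0897, edgeR adjusted p = 0.761; exact permutation p = 0.1) and -0.14 without AdSIRT4 replicate 1 (edgeR adjusted p = 0.192). Over the 19 alternatives it stayed below 0 and lay between -0.16 and -0.065.

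BTG2 (Entrez gene 7832, chromosome 1, 203305519 to 203309602), an antiproliferative protein that recruits the CCR4-NOT deadenylase to mRNAs and is induced by p53 and by growth factors, was the member with the smallest p. It stood at 10.4, 11.8 and 9.56 CPM in the control samples and at 8.47, 7.81 and 8.01 CPM with AdSIRT4. Every AdSIRT4 sample lay below every AdCtrl sample, in CPM and in FPKM, and the AdSIRT4 samples lay closer together than the AdCtrl samples. The means were 10.6 ± 1.10 and 8.10 ± 0.339 CPM (SD, n = 3), which gave a log2 fold change of -0.39 (SE 0.118, unadjusted p = 0.0132 and edgeR adjusted p = 0.536; exact permutation p = 0.1). BTG2 passed the test without AdSIRT4 replicate 1 (log2 fold change -0.42, SE 0.105, edgeR adjusted p = 0.037), and in 3 of its 19 alternatives in all. The log2 fold change lay between -0.45 and -0.30 over those alternatives, and its adjusted p between 0.00678 and 0.971 (edgeR, DESeq2 and limma).

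For MDM2 and GDF15 the samples of the groups overlapped, and neither passed the test. MDM2 (Entrez gene 4193, chromosome 12, 68808172 to 68850686) stood at 58.0, 60.0 and 61.5 CPM in the control samples and at 60.5, 61.4 and 65.4 CPM with AdSIRT4. The ranges overlapped, with a log2 fold change of 0.062 (SE 0.0841, edgeR adjusted p = 0.830) that was 0.079 without AdSIRT4 replicate 1 and 0.028 without AdSIRT4 replicate 3. It was 0.21 with the length trend removed (edgeR adjusted p = 0.508) and 0.19 with the replicate block added to that, and the sign turned in limma on log2(FPKM + 1), where it was -0.061. The transcript length implied by the counts and the FPKM together was the same across samples within 5% for the other 8 members but ran for MDM2 from 8842 bases in AdCtrl replicate 2 to 10136 bases in AdSIRT4 replicate 1. The 3′ part of MDM2 overlaps the gene of carboxypeptidase M, which had 132.3 CPM in AdCtrl and 109.6 CPM in AdSIRT4 cells, so MDM2 reads there are uncertain.

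GDF15 (Entrez gene 9518, chromosome 19, 18386158 to 18389176), a secreted cytokine of the TGF-β superfamily that is induced by p53 and by ATF4 in stressed cells, had the widest spread between AdCtrl samples, relative to its mean, of the members above 1 CPM. It stood at 110.1, 92.9 and 130.6 CPM in the control samples and at 104.4, 85.5 and 114.3 CPM with AdSIRT4. In both groups replicate 3 was the highest and replicate 2 the lowest, and within each replicate number the AdSIRT4 sample lay below the AdCtrl sample. The log2 fold change was -0.13 (SE 0.163, edgeR adjusted p = 0.812) and -0.16 without AdSIRT4 replicate 1 (edgeR adjusted p = 0.681). It depended on other single samples as well, since it was -0.0019 without AdCtrl replicate 3, -0.018 without AdSIRT4 replicate 2 and -0.25 without AdCtrl replicate 2. A replicate block in the fit of all samples left it at -0.13 (edgeR adjusted p = 0.719). Both steps together, a fit chosen after seeing the data, gave an adjusted p of 0.0452 from edgeR at a log2 fold change of -0.16.

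**Figure D2:**
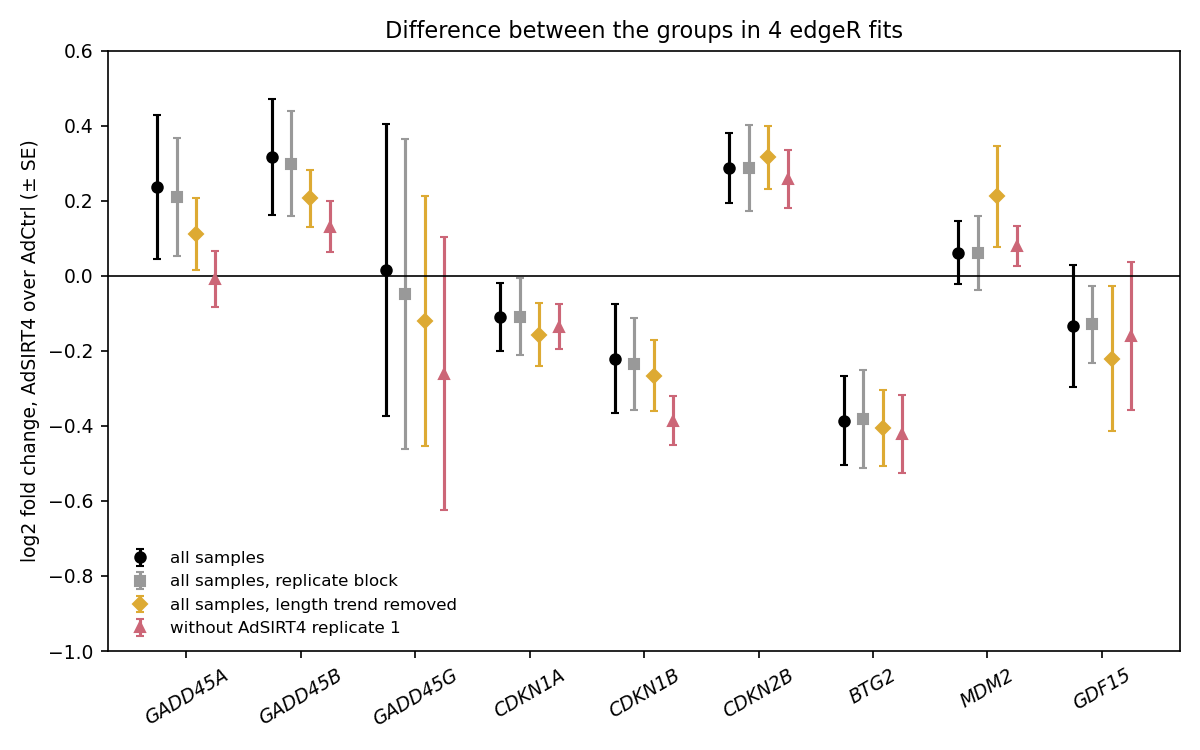
Log2 fold change of AdSIRT4 over AdCtrl cells for each of the 9 genes in 4 edgeR fits, with bars of 1 SE and a line at 0. CDKN2B and BTG2 keep about the same value in the 4 fits, GADD45A and GADD45B move towards 0 and CDKN1B away from 0 without AdSIRT4 replicate 1.

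AdSIRT4 replicate 1 was set beside the other AdSIRT4 replicates gene by gene, since it carried the GADD45A and GADD45B differences. GADD45A was higher in replicate 1 than the mean of replicates 2 and 3 by 0.63 in log2 CPM, and 1995 genes of similar length (from 0.8 times its own to the inverse of that ratio) were higher by a median of 0.50. For GADD45B the values were 0.49 and 0.48, and for BTG2 0.099 and 0.10, so GADD45B and BTG2 differed about as much as the median gene of their length. GDF15 was higher by 0.079 where genes of its length were higher by 0.54, and CDKN1B by 0.44 where its length class was higher by 0.18. MDM2, the longest member, differed by -0.066 where genes of its length differed by -0.56. With the length trend removed from every library, the log2 fold change was 0.11 for GADD45A (edgeR adjusted p = 0.622) and 0.21 for GADD45B (edgeR adjusted p = 0.298).

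Levels were compared between genes in FPKM, which accounts for transcript length but leaves the length trend of AdSIRT4 replicate 1 in place. In AdCtrl cells GDF15 was the highest, at 82.0 ± 16.6 FPKM (SD, n = 3), followed by GADD45A at 39.5 ± 5.28, CDKN1B at 31.8 ± 0.953, CDKN1A at 29.1 ± 1.57 and GADD45B at 16.1 ± 0.732 FPKM. MDM2 followed at 6.59 ± 0.370, BTG2 at 3.40 ± 0.249, CDKN2B at 3.17 ± 0.211 and GADD45G at 0.503 ± 0.0832 FPKM. The ranges of neighbours in this order did not overlap, except those of BTG2 and CDKN2B. In AdSIRT4 cells the order was GDF15 (72.8 ± 11.2 FPKM), GADD45A (45.1 ± 9.55), CDKN1A (26.6 ± 1.42), CDKN1B (26.5 ± 3.62), GADD45B (19.5 ± 3.12), MDM2 (6.29 ± 0.671), CDKN2B (3.77 ± 0.140), BTG2 (2.55 ± 0.0571) and GADD45G (0.495 ± 0.202). BTG2 and CDKN2B thus stood in the opposite order in the groups, with ranges that overlapped in AdCtrl cells and were separate in AdSIRT4 cells. With all samples CDKN1A and CDKN1B could not be ordered in AdSIRT4 cells, since their ranges overlapped. Without AdSIRT4 replicate 1 the order of the AdSIRT4 means was the same, with GADD45A at 39.6 and GADD45B at 17.8 FPKM. CDKN1A then stood at 25.87 and 28.18 FPKM, above CDKN1B at 25.75 and 23.36 FPKM.

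**Figure D3:**
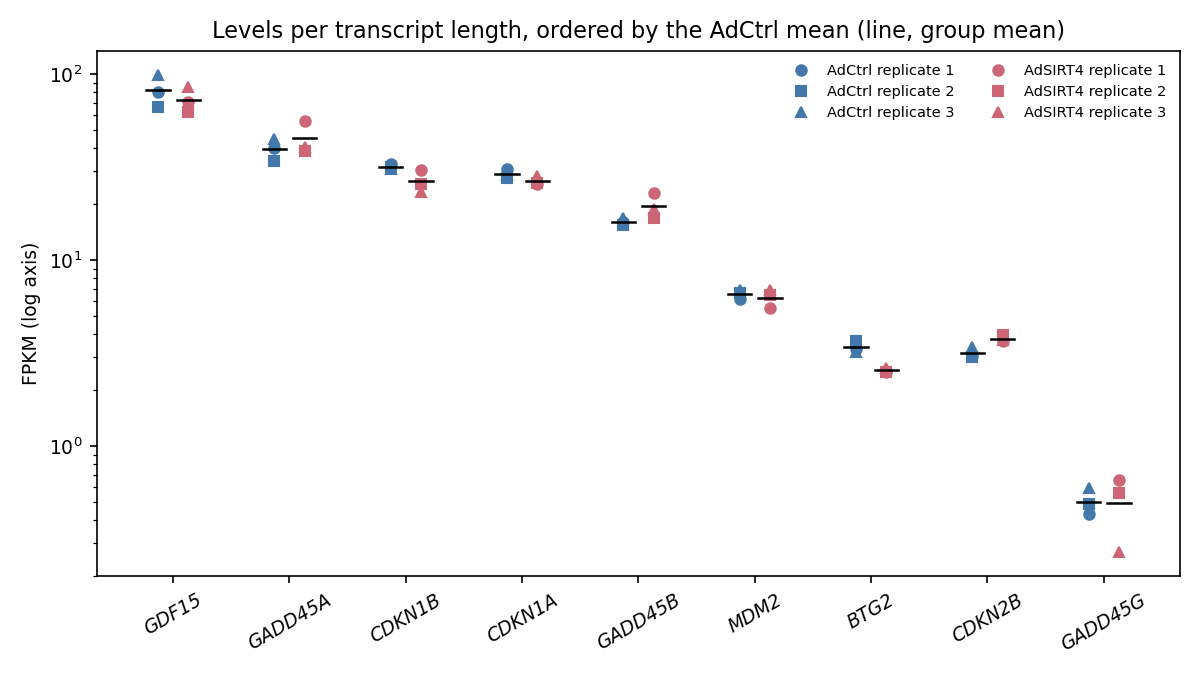
FPKM of the 9 genes on a log axis in each AdCtrl (blue) and AdSIRT4 (red) sample, ordered by the AdCtrl mean, with lines at the group means. The genes span from 0.269 FPKM, GADD45G in AdSIRT4 replicate 3, to 99.3 FPKM, GDF15 in AdCtrl replicate 3, and GADD45B is the highest in AdSIRT4 replicate 1.

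The genes whose pattern over the 6 samples was most like that of 3 members were taken from 10357 genes with at least 10 CPM, by the root mean square difference of centred log2 CPM. Nearest to GADD45B were BYSL (0.020), MMP7 (0.026) and GPATCH3 (0.028), where the median gene lay at 0.24. Nearest to GADD45A were GYG1 (0.036), TIMM9 (0.040) and PSMA6 (0.041), where the median gene lay at 0.26. Like GADD45A, these were highest in AdSIRT4 replicate 1, with PSMA6 at 166.9 CPM there and between 92.1 and 112.0 CPM elsewhere. Nearest to CDKN1A were BDH1 (0.020), FHOD1 (0.024) and GPC1 (0.028), where the median gene lay at 0.18. The points share their libraries and length bias, and the likeness was not tested.

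Genes of the p53 axis lay on both sides of 0. MDM4, the p53-binding relative of MDM2, had 55.1 ± 9.98 CPM in AdCtrl cells and 57.4 ± 1.39 CPM in AdSIRT4 cells (SD, n = 3), a difference within the spread of the AdCtrl samples, with a log2 fold change of 0.060 (0.056 without AdSIRT4 replicate 1). Of 13 regulators and relatives of p53 12 were tested, 6 were above 0 and 6 below, none had an unadjusted p under 0.05, and the median log2 fold change was 0.0021, where that of all genes tested was 0.021. The smallest p among them belonged to RPL5 (log2 fold change 0.31), HIPK2 (-0.45) and TP73 (-0.27). Without AdSIRT4 replicate 1 RPL5 was at 0.035 and HIPK2 at -0.15, so the size of both rested on that sample, and TP73 was at -0.27. Of 28 other p53 target genes 26 were tested, with 15 above and 11 below 0 and a median of 0.042 that was -0.011 without AdSIRT4 replicate 1. Of these, 2 were higher and 1 lower at an unadjusted p under 0.05, where 4.43% and 3.5% of all genes tested were. In edgeR with all samples, 0 passed an adjusted p of 0.05. Without AdSIRT4 replicate 1, 3.37% of all genes were called higher and 3.34% lower. AEN, an apoptotic nuclease, had 14.1 ± 0.439 and 18.4 ± 0.938 CPM (log2 fold change 0.39), and PERP, a desmosomal and apoptotic protein, 96.1 ± 2.47 and 121.5 ± 17.4 CPM (0.34). SESN2, a stress-induced inhibitor of mTORC1, had 80.7 ± 4.96 and 52.8 ± 11.2 CPM (-0.61). AEN, PERP and SESN2 were the list members called without AdSIRT4 replicate 1, at 0.41, 0.21 and -0.46 (adjusted p = 0.0113, 0.0399 and 0.00318 from edgeR). AEN was also called by DESeq2 with all samples (adjusted p = 0.0246).

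Genes on which the inhibitors act were read next. For the counts below, 4.43% of all genes tested were higher and 3.5% lower at an unadjusted p under 0.05. Without AdSIRT4 replicate 1, 3.37% of all genes were called higher and 3.34% lower by edgeR's adjusted p. Of 17 genes of the G1 cyclins, their kinases and the RB and E2F proteins, 10 were above and 7 below 0, with a median log2 fold change of 0.061 (-0.0066 without AdSIRT4 replicate 1). The 1 gene with an unadjusted p under 0.05 was CCND1, the cyclin D1 that partners CDK4 and CDK6, with 27.4 ± 1.54 CPM in AdCtrl and 42.4 ± 9.21 CPM in AdSIRT4 cells (log2 fold change 0.63, edgeR adjusted p = 0.494). It was 0.78 without AdSIRT4 replicate 1 (edgeR adjusted p = 0.00072). E2F2 (-0.24, and -0.15 without that sample) and RBL1 (0.22) followed by p. RBL1 (0.33), CCND3 (-0.22) and CKS1B (-0.27) were also called without AdSIRT4 replicate 1 (adjusted p = 0.0196, 0.0416 and 0.0356 from edgeR). Among the other CDK inhibitors, with a median of 0.13, CDKN2D (0.26), CDKN1C (0.13) and CDKN2A (0.16) did not pass. All 3 rested on AdSIRT4 replicate 1, since they were at 0.056, -0.16 and -0.20 without it and the median of the list at -0.18, and CDKN2C was then the 1 of 5 called, with a log2 fold change of -0.31 (edgeR adjusted p = 0.0351). Of 15 GADD45 partners and kinases of the p38 and JNK pathways, 9 were above and 6 below 0 (median 0.090, and -0.0050 without AdSIRT4 replicate 1) and none had an unadjusted p under 0.05. CDC25B (-0.22), MAP2K6 (-0.25) and MAP2K3 (0.20) had the smallest p, and without AdSIRT4 replicate 1 CDC25B was called, at -0.28 (edgeR adjusted p = 0.0137), with MAP2K6 at -0.16 and MAP2K3 at 0.20. Of the 10 tested genes of the BTG and TOB family and the CCR4-NOT deadenylases, 6 were above and 4 below 0 (median 0.037), led by CNOT7 (0.22), CNOT8 (0.20) and TOB2 (-0.28), with none under 0.05. CNOT7, CNOT8 and TOB2 were at 0.11, 0.087 and -0.13 without AdSIRT4 replicate 1 and the median at -0.034, and TOB1 was then called, at -0.29 (edgeR adjusted p = 0.0329). Of 17 proliferation genes, 9 were above and 8 below 0 (median 0.014), and RRM2 (-0.38) was the 1 with an unadjusted p under 0.05, ahead of BUB1 (-0.22) and MCM6 (0.17). The same genes were at -0.43, -0.16 and 0.091 without AdSIRT4 replicate 1, where the median was -0.099.

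The list of DNA damage-inducible and stress genes lay furthest from the median of all genes. Of 12 genes, 4 were above and 8 below 0, with a median log2 fold change of -0.30 with all samples and -0.29 without AdSIRT4 replicate 1, where the medians of all genes were 0.021 and -0.0028. At an unadjusted p under 0.05, 4 were lower (DDIT4, TRIB3, ASNS and SESN3) and 1 was higher (ATF3). Of all genes tested, 3.5% were lower and 4.43% higher at that threshold. Without AdSIRT4 replicate 1, 3.34% of all genes were called lower and 3.37% higher by edgeR's adjusted p. The groups of ASNS overlapped in CPM, and 0 of the 12 passed an adjusted p of 0.05 in edgeR with all samples. DDIT4, an inhibitor of mTORC1 induced by hypoxia and DNA damage, had 164.3 ± 10.1 CPM in AdCtrl and 121.8 ± 10.6 CPM in AdSIRT4 cells (log2 fold change -0.43, edgeR adjusted p = 0.494), and -0.48 without AdSIRT4 replicate 1 (edgeR adjusted p = 0.00546). DESeq2 called it with all samples (adjusted p = 0.0241). TRIB3 (-0.47) and ASNS (-0.67) are targets of ATF4, and SESN3 (-0.90) is a sestrin present at 1.06 ± 0.0276 CPM in AdCtrl cells. They were at -0.44, -0.59 and -0.88 without AdSIRT4 replicate 1 and were not called there. ATF3, a stress-induced transcription factor, had 27.4 ± 2.55 and 35.8 ± 2.74 CPM (log2 fold change 0.39) and was called without AdSIRT4 replicate 1, at 0.44 (edgeR adjusted p = 0.0116). Of 15 genes of TGF-β growth arrest, 8 were above and 7 below 0 (median 0.045, and 0.077 without AdSIRT4 replicate 1), and SMAD7 (0.75) and MYC (0.25) had an unadjusted p under 0.05, followed by E2F4 (0.20, and 0.12 without that sample). In the main edgeR fit of all samples 0 of the 15 passed an adjusted p of 0.05, and that of SMAD7 was 0.204. SMAD7 was called with all samples by DESeq2 (adjusted p = 3.8e-12) and by edgeR with the length trend removed (adjusted p = 0.0216). Without AdSIRT4 replicate 1 SMAD7 (0.73), MYC (0.24) and ID3 (-0.84) were called (adjusted p = 0.00031, 0.0492 and 0.00072 from edgeR).

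**Figure D4:**
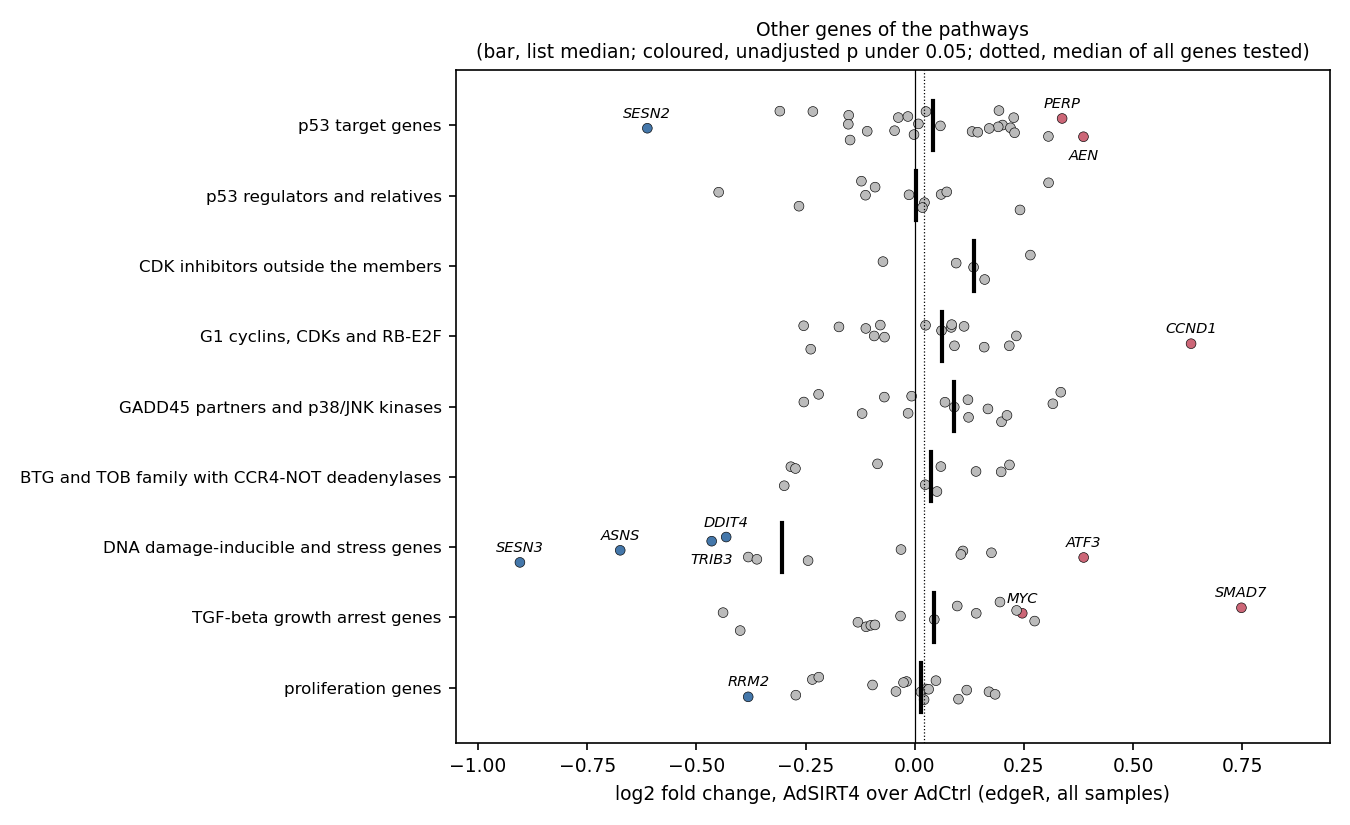
Log2 fold change of AdSIRT4 over AdCtrl cells for each tested gene of 9 lists, in edgeR's fit of all 6 samples; thick bars are list medians, the dotted line is the median of all genes tested, and genes with an unadjusted p under 0.05 are coloured and named. The stress genes have the lowest median, -0.30, and the other lists have medians between 0.0021 and 0.13, of which those of 6 lists fall below 0 without AdSIRT4 replicate 1, a fit not drawn here.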

How the data were processed

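RNA of HK2 cells was sequenced from polyA-selected libraries, 3 AdCtrl and 3 AdSIRT4 samples. The authors deposited raw counts per gene and a table of normalized levels. The header of the latter names no unit, and these deposited values were taken to be FPKM because of their relation to the counts and to gene length. The submitters' processing notes list fastp 0.21.0, HISAT2 2.1.0, StringTie 2.1.5, DESeq2 1.30.1 and the build hg38. Every deposited column was matched to a sample by its name.

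Counts were filtered with filterByExpr (minimum count 10), scaled with TMM and compared with edgeR 4.0.16 in R 4.3.3 (robust quasi-likelihood test, all 6 samples, Benjamini-Hochberg adjustment over all genes tested, threshold 0.05). CPM are on this scale. In edgeR fits the SE was back-calculated, as the absolute log2 fold change divided by the square root of the test's F statistic. Single genes were also compared with an exact permutation test of log2 CPM. Deviations from the group means correlated at 0.178, 0.159 and 0.176 across genes for samples with the same replicate number and between -0.188 and 0.030 for the others. The numbers were therefore read as a possible pairing of the samples, from the data and the titles. The main edgeR fit and the permutation test did not use this pairing, and a replicate block was fitted only as an alternative. Samples within a group differed beyond sampling noise (chi-square per gene 9.36 to 213). A count of 0 allows 3 counts, 0.0350 to 0.0722 CPM, which covers counting error only.

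Alternatives were DESeq2 1.42.0, limma 3.58.1 on log2(FPKM + 1) and log2(FPKM + 0.1), other filters and scaling, the replicate block, removal of each library's trend on gene length, sample quality weights and each sample left out. The scripts were tested on simulated data. The members, lists and tests were chosen with earlier results of these data known. Genes named outside the members are SIRT4, MDM4, DDIT4, the 3 genes of each pathway list with the smallest p, and the 3 nearest patterns of GADD45A, GADD45B and CDKN1A. Further genes of a list that passed a threshold were named after their values were seen. A gene that the rule would name is not reported here. Gene positions and promoters came from RefSeq (GRCh38.p14) and motifs were searched with Python 3.11.15.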

Additional observations from a re-analysis of the deposited data

How the results depend on the processing

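The number of genes with an adjusted p under 0.05, 2 with all samples in edgeR, was 212 in DESeq2, 5 with all genes of at least 1 count, 4 with at least 10 counts in every sample and 1 with the replicate block. It was 0 in limma on log2(FPKM + 1) and 0 there with the replicate block, 1 on log2(FPKM + 0.1) and 5 when genes under a mean FPKM of 1 were dropped. It was 12 with the length trend removed, 6 when a replicate block was added to that, and 1584 in voom with sample quality weights. With each sample left out in turn it ran from 0 to 1227, the highest without AdSIRT4 replicate 1, and without that sample and with the replicate block, an alternative chosen after seeing the data, it was 2523. The number of the 9 growth arrest genes called, 0 with all samples, ran from 0 to 2 with each sample left out, and was 3 with sample quality weights (CDKN1B, CDKN2B and BTG2) and 3 without AdSIRT4 replicate 1 and with the replicate block (CDKN1B, BTG2 and GDF15). The replicate block changed no call of a member with all samples. With each sample left out, between 7 and 9 of the genes kept their rank in FPKM, since CDKN1A and CDKN1B changed places without AdSIRT4 replicate 2 or 3. The cause of these changes was not tested.

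The log2 fold changes of CDKN2B, BTG2, CDKN1A, CDKN1B, GADD45B and GDF15 kept their direction under all 19 alternatives. GADD45A turned to -0.0086 without AdSIRT4 replicate 1 and ran up to 0.36 with another sample left out. In limma on log2(FPKM + 1) MDM2 turned to -0.061, also with the block or the filter on mean FPKM, and to -0.070 on log2(FPKM + 0.1). GADD45G, with few reads, turned to -0.049 with the replicate block, -0.015 on log2(FPKM + 1), blocked or not, -0.075 on log2(FPKM + 0.1), -0.12 with the length trend removed, -0.16 with the block added, -0.059 with sample quality weights, and -0.44 without AdSIRT4 replicate 1 and with the replicate block. With samples left out GADD45G ran from -0.26 to 0.34. Without AdSIRT4 replicate 1, with sample quality weights, and without that replicate but with the block, CDKN1C turned to -0.16, -0.12 and -0.15 and CDKN2A to -0.20, -0.15 and -0.10. With a sample left out, the other end of the range was 0.29 for CDKN1C and 0.33 for CDKN2A. The log2 fold change of CDKN2A was -0.00752 with the length trend removed and -0.011 with the block added. MDM4 was -0.082 without AdCtrl replicate 1, up to 0.15 without another sample, and -0.087 without AdSIRT4 replicate 1 and with the block. GADD45G could not be fitted at a mean FPKM of at least 1. Its standard error was 0.39 at 26 to 59 reads per sample, and differences of that size or somewhat larger could not be told from 0.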
